A study of Mus musculus with 4 samples.

Results

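The acute phase proteins described here were the 10 genes Saa1, Saa2, Saa3, Lcn2, Orm1, Orm2, Hp, Hpx, Crp and Apcs, chosen by their symbols. All 10 of 10 symbols were found among the 31053 genes of the deposited tables, each in 1 row. Their RNA was followed in hepatocyte-like, monocyte-like and mesenchymal-like cells of mouse liver and set beside the other cell classes.

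The data were 4 single-cell 3' RNA libraries of C57BL/6 mouse liver, 1 per group, so no difference below has a replicate check, and no test, p-value or standard error was computed. The HCC library came from a cell suspension of the HCC region, in a series that followed obesity to HCC, the liver cancer of hepatocytes, in mice on a diet called CD-HFD. The high-AFP and low-AFP libraries are named by an AFP label that was not explained further, and came, like control, from the parenchymal and non-parenchymal fractions. The high-AFP library is titled as control diet but carries CD-HFD in its file name, so its diet is uncertain. The low-AFP library is titled as CD-HFD and the control library as control diet. No diet was given for the HCC library. The titles give an age of 15 months and the age field 17 months for all libraries. Purified parenchymal cells and live-sorted non-parenchymal cells were mixed 1 to 1, in the same words for all libraries, so the proportions of cell classes were set in part by hand. How many animals went into a library was not given in the sources used here.

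The acute phase response is the change in plasma protein secretion by the liver during inflammation or injury. Cytokines such as Il6 act on hepatocytes through the receptor subunits Il6ra and Il6st and the factor Stat3, and Il1b and Tnf act through NF-kB, with C/EBP factors binding many of the responding promoters. The serum amyloid A genes are among the most inducible of these in mouse, haptoglobin (Hp) binds free haemoglobin, hemopexin (Hpx) binds haem, Lcn2 binds iron-carrying siderophores, the orosomucoids are lipocalins that carry small molecules, and Crp and Apcs encode pentraxins, of which Apcs is the main acute phase pentraxin in mouse.

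The promoters of 8 of the 10 members were in the RefSeq table (build GRCm38.p6, 250 bases before to 50 bases after the start site). The promoters of Saa1, Saa2, Orm2 and Lcn2 are shown because these 4 genes stood highest over control in hepatocyte-like cells of high-AFP and low-AFP. That of Saa3 is shown because most of its RNA in HCC, high-AFP and low-AFP lay outside hepatocyte-like cells. Saa1 lies on the minus strand of chr7:46742931-46743230 and Saa2 on the plus strand of chr7:46751583-46751882. Orm2 lies on the plus strand of chr4:63362199-63362498, Lcn2 on the minus strand of chr2:32387690-32387989 and Saa3 on the minus strand of chr7:46715627-46715926. Each sequence is written 5′ to 3′ in the direction of the gene. Capitals mark the letters of a C/EBP-like motif (TTNNGNAA) and, among these 5 promoters, of a TATA-box-like motif (TATAAA) in Orm2 and an NF-kB-like motif (GGNNTTTCC) in Saa3, which overlaps a C/EBP-like one.
Saa1: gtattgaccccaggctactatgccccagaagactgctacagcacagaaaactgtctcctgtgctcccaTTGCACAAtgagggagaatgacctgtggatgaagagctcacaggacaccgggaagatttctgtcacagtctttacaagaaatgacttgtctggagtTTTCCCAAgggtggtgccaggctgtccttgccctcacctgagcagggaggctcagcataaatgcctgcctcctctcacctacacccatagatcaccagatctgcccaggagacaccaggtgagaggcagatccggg
Saa2: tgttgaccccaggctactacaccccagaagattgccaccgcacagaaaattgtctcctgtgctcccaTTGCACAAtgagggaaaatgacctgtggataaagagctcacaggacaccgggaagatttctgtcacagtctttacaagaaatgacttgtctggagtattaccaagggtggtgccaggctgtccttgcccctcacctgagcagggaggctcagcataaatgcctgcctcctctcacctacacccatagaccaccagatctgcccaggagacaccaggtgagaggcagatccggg
Orm2: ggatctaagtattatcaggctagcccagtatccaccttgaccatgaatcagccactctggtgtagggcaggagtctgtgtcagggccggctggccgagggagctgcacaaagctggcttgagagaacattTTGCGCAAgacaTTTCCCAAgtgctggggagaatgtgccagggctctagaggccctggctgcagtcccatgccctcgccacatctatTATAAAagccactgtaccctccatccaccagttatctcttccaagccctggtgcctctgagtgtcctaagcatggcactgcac
Lcn2: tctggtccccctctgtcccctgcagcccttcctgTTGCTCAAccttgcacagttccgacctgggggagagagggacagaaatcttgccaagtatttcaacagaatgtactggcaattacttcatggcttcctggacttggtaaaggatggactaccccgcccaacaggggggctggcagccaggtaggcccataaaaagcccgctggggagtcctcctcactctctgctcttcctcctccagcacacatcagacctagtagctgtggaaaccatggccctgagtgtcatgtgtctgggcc
Saa3: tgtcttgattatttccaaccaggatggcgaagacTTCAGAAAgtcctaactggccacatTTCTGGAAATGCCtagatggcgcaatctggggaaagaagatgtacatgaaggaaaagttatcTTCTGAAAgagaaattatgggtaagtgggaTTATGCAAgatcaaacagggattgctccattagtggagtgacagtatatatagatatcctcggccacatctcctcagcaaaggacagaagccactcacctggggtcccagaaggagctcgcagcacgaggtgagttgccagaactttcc

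A C/EBP-like motif, on either strand, was in 7 of the 8 member promoters and in 40.7% of all 32851 promoters of the table. A STAT-like motif (TTCNNNGAA) was in 1 of 8 members, Apcs, and in 8.30% of all promoters, and TATAAA was in 2 of 8, Orm2 and Crp, and in 13.6% of all. The NF-kB-like motif was in 1 of 8, Saa3, and in 5.82% of all. A match is a description of the letters and not a binding site. The Saa1 and Saa2 promoters were 96.0% identical over 299 aligned bases, against 65.1% for Saa1 and Saa3. The annotated transcripts of Saa1 and Saa2 (GENCODE M21) were 94.4% identical over 606 bases, and those of Orm1 and Orm2 were 97% identical in their last 200 bases, where 3' reads fall. Which of Saa1 and Saa2, or of Orm1 and Orm2, a UMI belongs to is therefore uncertain.

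The libraries held 65326793 UMIs in HCC, 97393862 in high-AFP, 80505127 in low-AFP and 71957655 in control, and 7491, 7902, 5129 and 6036 cells were kept in that order. The limit on mitochondrial UMIs removed 8.19% of HCC barcodes, 26.5% of high-AFP, 42.0% of low-AFP and 42.7% of control barcodes. Pairs of libraries shared 3 to 29 cell barcodes. Hepatocyte-like cells numbered 1222, 3606, 2156 and 2743 in HCC, high-AFP, low-AFP and control, and their 13 hepatocyte markers summed to 71063, 104574, 125162 and 151966 counts per 1000000 nuclear-encoded UMIs (CPM). The HCC cells were shallower, with a median of 1960.5 UMIs against 11982, 15927 and 12085. The largest cluster of the class differed between libraries: it was cluster 17, led by Oat and Glul, in HCC (31.7%), cluster 1, led by Cps1, in high-AFP (35.7%) and low-AFP (36.3%), and cluster 2, led by Slc10a1 and Alb, in control (56.1%).

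In hepatocyte-like cells the 10 genes together made up 0.742% of nuclear-encoded UMIs in HCC, 1.02% in high-AFP, 1.32% in low-AFP and 1.04% in control. Levels below are class sums in CPM, with exact Poisson intervals at 95% that cover counting error only. Hp and Hpx stood above 2000 CPM in all 4 libraries and Saa3 stayed under 10 CPM, the minimum for a call. A gene was called when its log2 fold, after 10 CPM were added to both values, reached 2-fold.

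Saa1 stood at 221 CPM in HCC, 358 CPM in high-AFP, 460 CPM in low-AFP and 157 CPM in control, from 1329, 16315, 16781 and 4458 UMIs. Saa2 stood at 125, 219, 237 and 74.3 CPM in the same libraries. Both genes encode the acute serum amyloid A carried on high-density lipoprotein, and both were at least 2-fold higher in high-AFP and low-AFP than in control. For Saa1 the ratio to control was 2.28 in high-AFP (95% interval 2.20 to 2.36) and 2.93 in low-AFP (2.83 to 3.03). For Saa2 the ratio to control was 2.95 in high-AFP (2.81 to 3.09) and 3.20 in low-AFP (3.05 to 3.35). In HCC the ratios were 1.41 for Saa1 (1.32 to 1.495) and 1.68 for Saa2 (1.55 to 1.83), short of the 2-fold rule. With a mitochondrial limit of 15% in place of 30%, neither gene was called: the log2 folds over control were 0.61 for Saa1 and 0.40 for Saa2 in high-AFP, and 0.77 and 0.52 in low-AFP. The median mitochondrial share of hepatocyte-like cells was 4.02% in HCC, 14.4% in high-AFP, 15.2% in low-AFP and 21.4% in control, and its part in these values was not tested.

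Lcn2, the siderophore-binding lipocalin also known from neutrophil granules, had the largest ratio of the 10 in each of the comparisons of hepatocyte-like cells with control. It stood at 598 CPM in HCC (579 to 618), 138 CPM in high-AFP (134 to 141), 257 CPM in low-AFP (251 to 262) and 36.1 CPM in control (33.9 to 38.4). The ratios to control were 16.6 in HCC (15.5 to 17.8), 3.81 in high-AFP (3.57 to 4.07) and 7.10 in low-AFP (6.66 to 7.58). Against high-AFP, HCC was 4.35 times as high (4.17 to 4.53), and without cluster 22 it was less than 2-fold higher, as given below.

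Neutrophil markers moved with the HCC value: all 10 summed to 89.1 CPM in HCC hepatocyte-like cells, with Ly6g at 0, against 2.28 CPM in high-AFP, 5.45 CPM in low-AFP and 2.89 CPM in control, where Ly6g and Il1r2 were at 0. In HCC neutrophil-like cells there were 0.844 Lcn2 UMIs per 100 UMIs of S100a8 and S100a9, the neutrophil alarmins, while HCC hepatocyte-like cells held 765 Lcn2 UMIs per 100. Leaving out the 118 HCC cells with a UMI of either gene, and likewise 32, 39 and 23 cells in high-AFP, low-AFP and control, left Lcn2 at 588 CPM in HCC and 36.2 CPM in control.

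Orm1 stood at 720 CPM in HCC (699 to 742), 1609 CPM in high-AFP (1597 to 1620), 1860 CPM in low-AFP (1846 to 1874) and 1477 CPM in control (1463 to 1491). Its ratio to control was 0.488 in HCC (0.472 to 0.503), at the edge of the 2-fold rule, 1.09 in high-AFP and 1.26 in low-AFP. The HCC call was lost without the cells holding S100a8 or S100a9 (log2 fold -0.94), without doublet removal (-0.75) and with every cell weighted equally (-0.56). Orm2, the neighbouring orosomucoid gene, stood at 37.2 CPM in HCC, 47.1 CPM in high-AFP, 64.6 CPM in low-AFP and 15.3 CPM in control. The ratios of Orm2 to control were 2.43 in HCC (2.06 to 2.87), 3.08 in high-AFP (2.78 to 3.42) and 4.22 in low-AFP (3.81 to 4.69). The HCC value of Orm2 was not called, because its log2 fold after 10 CPM were added was 0.90. With 1 CPM added it was 1.23, past 2-fold. In these class sums the orosomucoid genes lay on opposite sides of control in HCC. The log2 folds of Orm1 and Orm2 were -1.45 and 0.87 in cluster 5. In cluster 10, with few UMIs, both were above control, at 0.30 and 2.20. The split of UMIs between the 2 genes is uncertain, as given above.

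Hp stood at 2821 CPM in HCC, 2952 CPM in high-AFP, 4018 CPM in low-AFP and 2155 CPM in control. Its ratio to control was 1.31 in HCC, 1.37 in high-AFP and 1.86 in low-AFP (1.85 to 1.88), none past 2-fold. Hpx, the haem scavenger, stood at 2693 CPM in HCC, 4326 CPM in high-AFP, 5745 CPM in low-AFP and 5822 CPM in control. Its ratio to control was 0.463 in HCC (0.455 to 0.470), 0.743 in high-AFP and 0.987 in low-AFP, and Hpx was called lower in HCC alone among these comparisons. Without cluster 17 the log2 folds of Hpx and Orm1 in HCC were -0.91 and -0.93, and neither was called. The Hp value of HCC also depended on the clusters held: without cluster 22 it was 2192 CPM in HCC against 2155 CPM in control. In the clusters shared with control, Hp and Hpx lay on the same side, with log2 folds in HCC of -0.80 and -1.42 in cluster 5 and of 0.66 and 0.52 in cluster 10.

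Crp, the pentraxin that binds phosphocholine, stood at 93.6 CPM in HCC (86.0 to 102), 427 CPM in high-AFP (421 to 433), 436 CPM in low-AFP (430 to 443) and 547 CPM in control (538 to 555). Its ratio to control was 0.171 in HCC (0.157 to 0.186), the lowest among the 10 members. In high-AFP and low-AFP the ratios of Crp were 0.781 and 0.798, inside the 2-fold limits. Apcs, serum amyloid P, stood at 106 CPM in HCC, 100 CPM in high-AFP, 159 CPM in low-AFP and 125 CPM in control. It was not called in these sums, at 0.842 times control in HCC (0.772 to 0.916), but that value rested on cluster 22, a cluster almost wholly of HCC cells described below. Without it, Apcs stood at 57.6 CPM in HCC and 125 CPM in control, a log2 fold of -1.003 that passed the 2-fold rule, while Crp stayed called lower.

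Saa3, an amyloid A gene known in mouse from macrophages and fat tissue, stood at 6.81 CPM in HCC, 8.86 CPM in high-AFP, 8.85 CPM in low-AFP and 9.83 CPM in control. It was found in 29 of 1222 HCC cells and 73 of 2743 control cells. A few hepatocyte-like cells held more: 11 cells in high-AFP, 7 in low-AFP and 6 in control had 10 or more Saa3 UMIs, with a highest count of 31 in control, and no HCC cell passed 6.

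**Figure D1:**
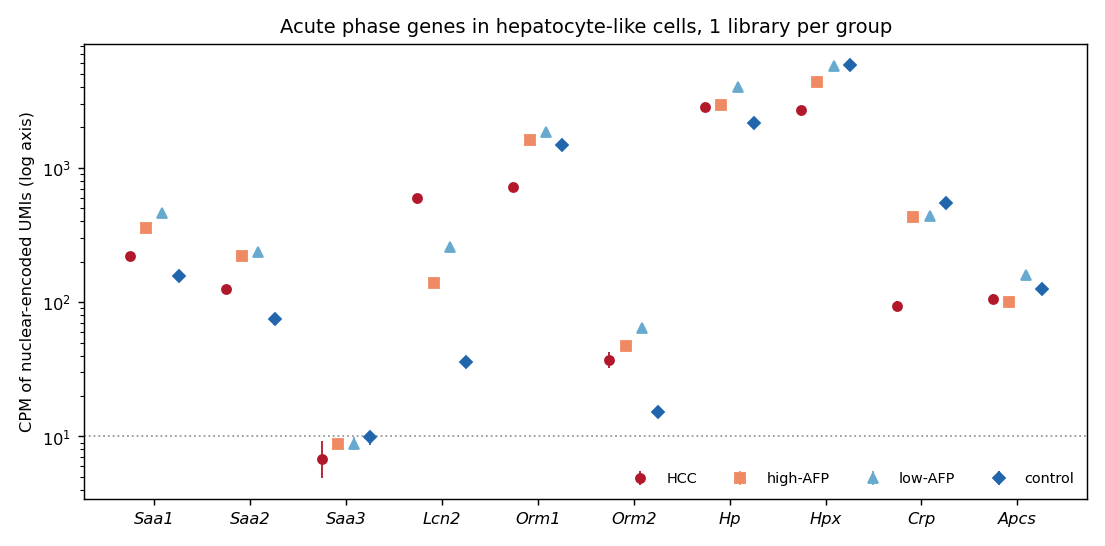
Level of each acute phase gene in hepatocyte-like cells of the 4 libraries, in CPM of nuclear-encoded UMIs on a log axis. Points are class sums of 1 library each, bars are exact Poisson intervals at 95%, and the dotted line is the 10 CPM minimum. Lcn2 stands at 598 CPM in HCC against 36.1 CPM in control, and Crp at 93.6 CPM against 547 CPM.

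Of the 9 members measured in hepatocyte-like cells, 1 (Lcn2) was called higher in HCC than in control, where 13.2% of the 7802 genes tested were, and 3 (Orm1, Hpx and Crp) were called lower, where 6.87% of genes were. The median log2 fold of the members was 0.39, beside 0.22 over all genes tested. Scaling by median-of-ratios size factors moved that median of all genes to 0.05 and the higher share of all calls from 65.8% to 50.6%, and the members called were unchanged. In the high-AFP library 4 of 9 (Saa1, Saa2, Lcn2 and Orm2) were called higher than in control, where 1.4% of 7070 genes were, and 0 lower, where 0.764% were. In low-AFP 4 of 9 were again called higher than in control, where 0.928% of 7008 genes were, and 0 lower, where 0.542% were. These 3 comparisons share the control library and are not independent.

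HCC against high-AFP gave 1 of 9 higher (Lcn2), where 6.14% of 7754 genes were, and 2 of 9 lower (Orm1 and Crp), where 4.32% were. Size factors moved the higher share of all calls there from 58.7% to 45.4%. High-AFP against low-AFP gave 0 of 9 in either direction, where 0.256% of 7042 genes were higher and 0.142% lower. The members' median log2 fold in that comparison was -0.38, beside 0.02 over all genes, and Lcn2 at -0.85 and Apcs at -0.62 were farthest from 0.

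**Figure D2:**
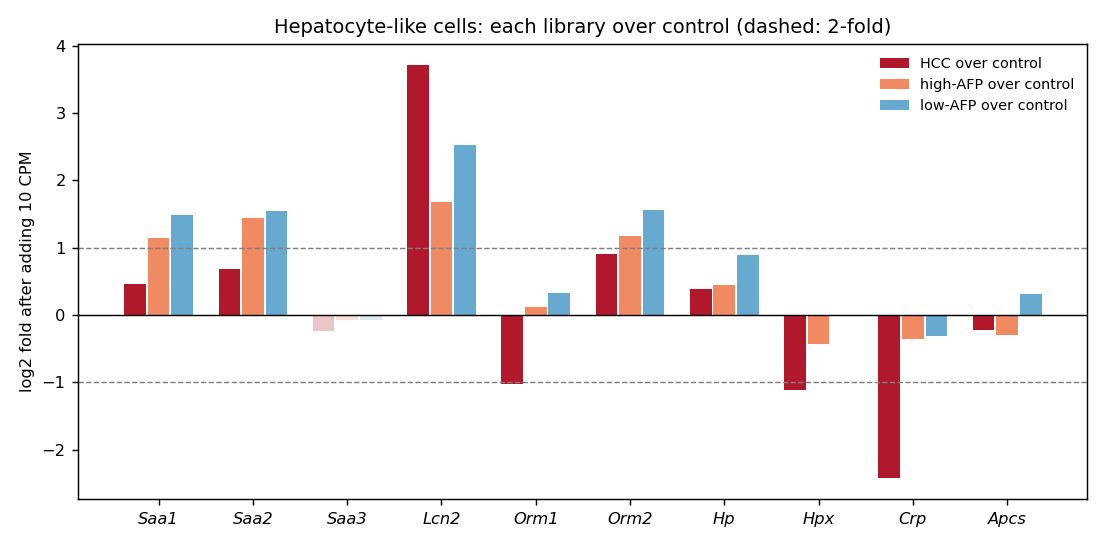
Log2 fold of each acute phase gene in hepatocyte-like cells of the HCC, high-AFP and low-AFP libraries over control, after 10 CPM were added. Bars are single values with no replicates, dashed lines mark 2-fold, and pale bars are genes under 10 CPM. Lcn2 reaches 3.72 in HCC, 1.68 in high-AFP and 2.53 in low-AFP, while Crp lies at -2.43 in HCC.

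Saa1 and Saa2 RNA was concentrated in few cells. The 1% of hepatocyte-like cells with most Saa1 held 56.2% of its UMIs in HCC, 28.8% in high-AFP, 21.4% in low-AFP and 35.4% in control. Cells with 10 or more Saa1 UMIs made up 1.80% of the class in HCC, 9.96% in high-AFP, 17.9% in low-AFP and 3.68% in control. Crp was spread more evenly outside the tumour library: its top 1% of cells held 43.5% in HCC, against 5.31% in high-AFP, 4.70% in low-AFP and 4.09% in control.

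Depth sets part of such shares, so each cell was also thinned to 1000 UMIs, which left out 311, 287, 192 and 245 shallower cells in HCC, high-AFP, low-AFP and control. The thinned share of cells with a Crp UMI was 4.5% in HCC, 23.7% in high-AFP, 28.9% in low-AFP and 32.9% in control, beside unthinned shares of 14.0%, 65.6%, 73.8% and 80.1%. For Lcn2 the thinned share was 21.8% in HCC, 8.98% in high-AFP, 15.4% in low-AFP and 2.52% in control, beside 36.7%, 40.7%, 61.9% and 17.8% unthinned. The unthinned Lcn2 share was thus higher in low-AFP than in HCC and the thinned share lower, in the order of the CPM. For Saa1 the thinned share was 10.3% in HCC, 16.2% in high-AFP, 20.9% in low-AFP and 7.29% in control.

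Across thinned cells of a library, 911 in HCC, 3319 in high-AFP, 1964 in low-AFP and 2498 in control, Saa1 and Saa2 had rank correlations of 0.35, 0.38, 0.36 and 0.39, and Hp and Hpx of 0.46, 0.44, 0.49 and 0.27. Lcn2 and Hpx stood at 0.32 in HCC, 0.10 in high-AFP, 0.14 in low-AFP and 0.09 in control. Cells of a library share its chemistry and sparse counts, and these values are descriptions.

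In the HCC library Lcn2 was not spread evenly over hepatocyte-like clusters. Cluster 22, led by Akr1c18 and with Afp and Lcn2 among its 10 leading genes, held 336 HCC cells, 14 high-AFP cells, 0 low-AFP cells and 1 control cell. Since the members were left out of the genes used for clustering, their levels there did not define it. Its HCC cells stood at 1286 CPM of Lcn2 and 453 CPM of Afp, against 248.8 CPM of Lcn2 in cluster 17, 136 CPM in cluster 5 and 224 CPM in cluster 15. Cluster 22 also had the most Hp (3901 CPM), Hpx (4211 CPM) and Apcs (188 CPM) among the HCC clusters with 20 or more cells, while its Saa1, at 125 CPM, lay below the 207 CPM of cluster 17 and the 275 CPM of cluster 5. Without cluster 22, Lcn2 in HCC stood at 199 CPM, still at least 2-fold above the 36.1 CPM of control, but the call against the 135 CPM of high-AFP was lost, with a log2 fold of 0.53. At a Leiden resolution of 2 that log2 fold was 0.15. The S100a8 level in cluster 22 of HCC was 10.4 CPM and that in cluster 5 was 116 CPM.

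The control cells lay mostly in clusters that HCC lacked, so the comparison was repeated inside each cluster with at least 50 cells in both libraries. HCC and control shared 2 such clusters. In cluster 5, led by Ttc36 and Gnmt, Lcn2 stood at 136 CPM in HCC and 56.4 CPM in control, and in cluster 10, whose cells had a median of 799 UMIs in HCC, at 234 CPM and 18.1 CPM. Crp was at least 2-fold lower in HCC in both, at 50.9 CPM against 139 CPM in cluster 5 and 26.0 CPM against 145 CPM in cluster 10. The cluster 10 values rest on few UMIs. In HCC 561 of 563 Crp UMIs and 3583 of 3601 Lcn2 UMIs of hepatocyte-like cells lay outside it. In control 1019 of 1025 Lcn2 UMIs did. Orm1 and Hpx were at least 2-fold lower in HCC in cluster 5 alone. In cluster 10 their log2 folds were 0.30 and 0.52. Saa1 stood at 275 CPM in HCC and 290 CPM in control in cluster 5, and at 286 CPM against 69.3 CPM in cluster 10.

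High-AFP and control shared 6 clusters, and so did low-AFP and control. In low-AFP Lcn2 was called higher in 6 of 6 and Orm2 in 5 of 6, while Saa1 was in 4 of 6 and Saa2 in 2 of 6. In high-AFP Lcn2 was called higher in 4 of 6, and Saa1, Saa2 and Orm2 in 3 of 6 each. In cluster 20, led by Chka, Saa2 was at least 2-fold lower than control in both, at 57.6 CPM in high-AFP and 75.03 CPM in low-AFP against 166 CPM in control. In cluster 5 of high-AFP none of the 10 was called higher, and Hpx, Crp and Apcs were called lower than control. Lcn2 in low-AFP was thus at least 2-fold above control in each cluster compared, and Saa1 and Saa2 were not. High-AFP and low-AFP shared 7 clusters. In cluster 2 Saa1, Saa2 and Saa3 were called higher in high-AFP, at 862, 724 and 29.9 CPM against 345, 124 and 7.19 CPM. Saa2 was also called higher in cluster 15. Called lower were Lcn2, Hp, Hpx and Apcs in cluster 5, Hpx in cluster 15 and Apcs in cluster 10. The share of all genes called inside single clusters was not computed, so these counts and calls have none beside them.

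Hepatocyte-like clusters led by genes of different zones of the liver lobule differed within a library. Cluster 7, led by the pericentral enzymes Cyp2e1 and Cyp2c29, and cluster 1, led by Cps1, the periportal enzyme of urea synthesis, each held at least 20 cells in 3 libraries. Hpx stood at 3189 CPM in cluster 7 and 5486 CPM in cluster 1 of high-AFP, at 4011 CPM and 7108 CPM in low-AFP, and at 1965 CPM and 7111 CPM in control. Saa1 likewise stood at 290 CPM and 399 CPM in high-AFP, 321 CPM and 578 CPM in low-AFP, and 114 CPM and 266 CPM in control. Crp differed little between the pair in control, at 605 CPM and 601 CPM, and stood at 430 CPM and 519 CPM in high-AFP and 410 CPM and 511 CPM in low-AFP. Cluster 2 also had Cps1 among its 10 leading genes and held 1538 control cells, against 143 in cluster 1. Its Hpx stood at 7172 CPM in high-AFP, 8694 CPM in low-AFP and 6799 CPM in control, and its Saa1 at 862, 345 and 143 CPM. In low-AFP and control that Saa1 lay nearer cluster 7 than cluster 1.

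**Figure D3:**
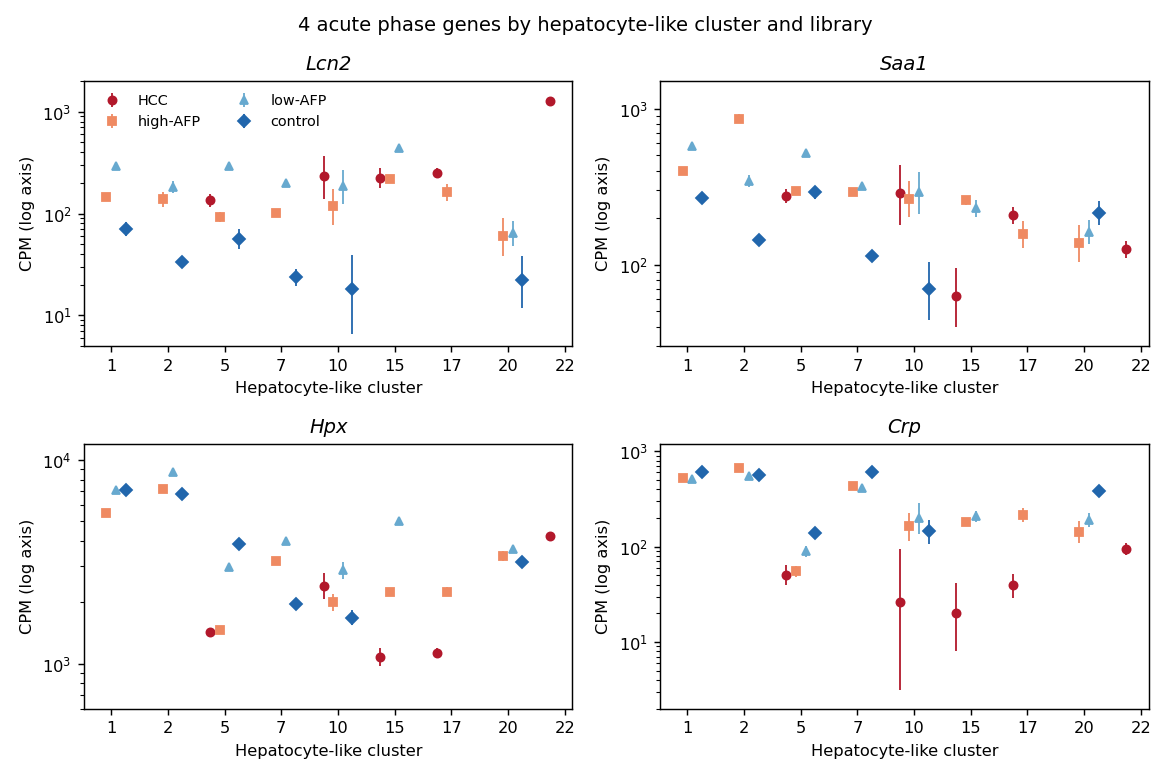
Level of Lcn2, Saa1, Hpx and Crp in each hepatocyte-like cluster with at least 20 cells of a library, in CPM on log axes. Points are single libraries and bars exact Poisson intervals at 95%. The HCC point of cluster 22 stands at 1286 CPM of Lcn2, above all others drawn, and the HCC points of Crp lie between 20.1 and 94.4 CPM.

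Outside hepatocyte-like cells, free RNA from hepatocytes has to be set beside each value. For each 100 UMIs of Alb, the main product of hepatocytes, T-like cells held 1.33 Saa1 UMIs in HCC, 2.29 in high-AFP, 1.51 in low-AFP and 0.271 in control, and hepatocyte-like cells held 1.68, 1.80, 1.25 and 0.244. Hpx per 100 Alb was 21.5, 25.2, 16.2 and 8.73 in T-like cells and 20.5, 21.8, 15.7 and 9.05 in hepatocyte-like cells. Lcn2 per 100 Alb was 4.96, 1.28, 0.729 and 0.0354 in T-like cells and 4.56, 0.694, 0.699 and 0.0561 in hepatocyte-like cells. For Saa1, Hpx and Lcn2 the ratio was lowest in control in both classes. Other members differed more between the classes in high-AFP. T-like and hepatocyte-like ratios there were 16.5 and 8.12 for Orm1, 31.5 and 14.9 for Hp, and 2.87 and 1.11 for Saa2. Crp went the other way, at 1.24 and 2.15. The part of free hepatocyte RNA in the T-like values was not tested. Alb itself was lower in each library than in control, at 13111 CPM in HCC, 19822 CPM in high-AFP, 36676 CPM in low-AFP and 64342 CPM in control hepatocyte-like cells.

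**Figure D4:**
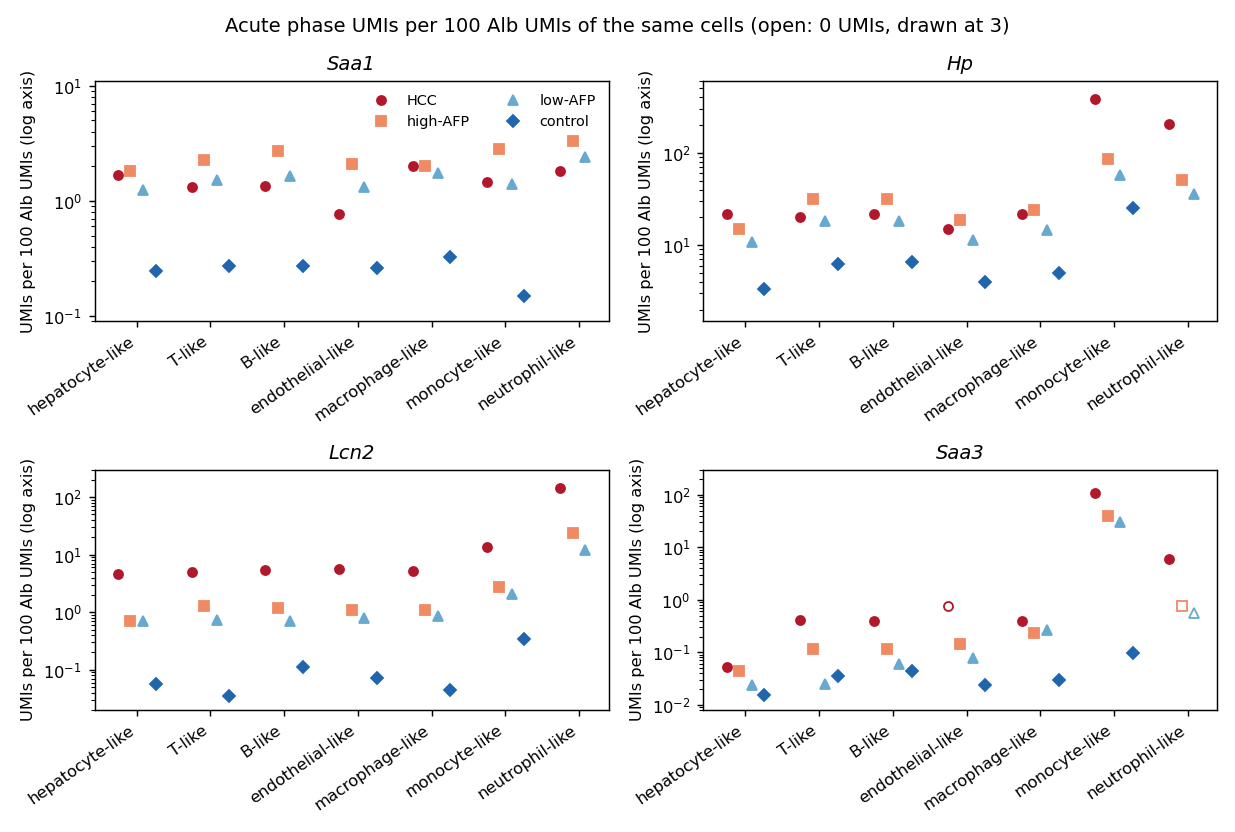
UMIs of Saa1, Hp, Lcn2 and Saa3 per 100 Alb UMIs in the same cells, by cell class and library, on log axes. Filled points are measured ratios, open points had 0 UMIs and are drawn at 3 UMIs, and the 44 neutrophil-like cells of control are not drawn. Saa1 per 100 Alb in T-like cells (1.33 in HCC and 0.271 in control) lies near hepatocyte-like cells (1.68 and 0.244), while Hp and Saa3 stand apart in monocyte-like cells.

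In control 93.9% of the 297 Saa3 UMIs of kept cells lay in hepatocyte-like cells. Most Saa3 UMIs of the HCC, high-AFP and low-AFP libraries lay in monocyte-like cells, a myeloid class led by Lyz2, Chil3 and Ccr2. These cells, most of them in cluster 3, numbered 1228 in HCC, 534 in high-AFP, 409 in low-AFP and 112 in control. Saa3 stood at 244 CPM in HCC (235 to 253, from 3065 UMIs), 288 CPM in high-AFP (272 to 305, from 1189 UMIs), 382 CPM in low-AFP (363 to 402, from 1511 UMIs) and 2.24 CPM in control (0.271 to 8.08, from 2 UMIs). The ratios to the 2 control UMIs were 109 in HCC (30.2 to 901), 129 in high-AFP (35.6 to 1066) and 171 in low-AFP (47.2 to 1411). Monocyte-like cells held 96.6% of all Saa3 UMIs of kept cells in HCC, 73.1% in high-AFP and 67.2% in low-AFP. The low-AFP majority rested on 1 monocyte-like cell, described below, with 974 of the 2249 Saa3 UMIs of that library. Hepatocyte-like cells of low-AFP held 323 of them and mesenchymal-like cells 389.

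Saa3 RNA came from a minority of these cells. It was found in 158 of 1228 cells in HCC (12.9%), 55 of 534 in high-AFP (10.3%), 34 of 409 in low-AFP (8.31%) and 2 of 112 in control (1.79%). In T-like cells the shares were 0.857%, 0.648%, 0.265% and 0.699%, at median depths of 4209.5, 3418, 4084 and 3964 UMIs, against 10973, 7715, 9735 and 8010 in monocyte-like cells. Thinned to 1000 UMIs, the shares of monocyte-like cells were 5.79% in HCC, 4.49% in high-AFP, 4.40% in low-AFP and 0% in control, where 0 of 112 cells allow up to 3.24%. Cells with 10 or more Saa3 UMIs, 58 in HCC, 27 in high-AFP and 15 in low-AFP, held 90.5%, 94.8% and 97.2% of the UMIs, and control had none.

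In low-AFP a single cell held 974 of the 1511 UMIs, together with 359 UMIs of Lyz2, a lysozyme of myeloid cells. Without the top cell of each library, Saa3 stood at 225 CPM in HCC, 233 CPM in high-AFP, 137 CPM in low-AFP and 1.13 CPM in control. The order of low-AFP over HCC and high-AFP rested on that cell. Cluster 3 stood at 298 CPM in HCC and 304 CPM in high-AFP, and cluster 18, the other monocyte-like cluster, at 39.9 CPM and 88.6 CPM.

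Hp was the other member with an excess in monocyte-like cells, at 869 CPM in HCC (853 to 885), 634 CPM in high-AFP (609 to 658), 730 CPM in low-AFP (704 to 757) and 569 CPM in control (521 to 621). Per 100 Alb there were 379, 85.2, 57.8 and 25.2 Hp UMIs, against 20.4, 31.5, 18.4 and 6.20 in T-like cells. Unlike Saa3, Hp was high in the control monocyte-like cells too, and no comparison with control reached 2-fold. In the HCC library 33.7% of all Hp UMIs of kept cells lay in monocyte-like cells and 52.5% in hepatocyte-like cells, against 94.8% in hepatocyte-like cells of control.

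Of 6 members measured in monocyte-like cells, 2 (Saa3 and Lcn2) were called higher in HCC than in control, where 0.636% of 8023 genes were, and 3 (Orm1, Hpx and Crp) lower, where 3.5% were. In high-AFP 3 of 8 (Saa1, Saa2 and Saa3) were called higher than in control, where 0.383% of 8104 genes were, and 0 lower, where 0.555% were. In low-AFP 3 of 7 (Saa1, Saa3 and Lcn2) were called higher, where 0.161% of 8057 genes were, and 0 lower, where 0.348% were. Control had 3 Saa1 UMIs, and the Saa1 ratios to it were 6.29 in high-AFP (2.08 to 31.1) and 5.27 in low-AFP (1.73 to 26.2).

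Alb in monocyte-like cells stood at 229 CPM in HCC, 744 CPM in high-AFP, 1263 CPM in low-AFP and 2255 CPM in control. Ttr, another hepatocyte product, stood at 58.1, 730, 590 and 702 CPM in those cells. Alb alone thus does not give the course of free hepatocyte RNA. Per 100 Alb, Saa1 stood at 1.46, 2.84, 1.40 and 0.149, Orm1 at 4.69, 16.2, 6.84 and 3.67, and Hpx at 21.9, 25.8, 16.8 and 7.89. In T-like cells Orm1 per 100 Alb stood at 4.05, 16.5, 7.12 and 3.96, and Saa1 and Hpx as given above. Crp stood at 0.590, 1.44, 0.940 and 0.595 per 100 Alb against 0.665, 1.24, 0.981 and 0.507 in T-like cells. Saa2 stood at 0.486, 2.32, 0.700 and 0.0992 against 0.762, 2.87, 0.805 and 0.153. The control values of Saa1 and Saa2 in monocyte-like cells rested on 3 and 2 UMIs. The part of free hepatocyte RNA in the monocyte-like calls of these 5 genes was not tested.

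Lcn2 per 100 Alb stood at 13.5, 2.77, 2.10 and 0.347 in monocyte-like cells of HCC, high-AFP, low-AFP and control, above the T-like values. The thinned share of cells with an Lcn2 UMI was 2.53% in HCC, 1.69% in high-AFP, 3.67% in low-AFP and 0% in control, beside 14.8%, 10.1%, 14.2% and 5.36% unthinned. In T-like cells the thinned shares were 2.28%, 2.18%, 0.543% and 0.471%, so the share stood clearly above the T-like one in low-AFP, nearly level with it in HCC and below it in high-AFP. The control value rested on 7 UMIs.

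Mesenchymal-like cells were 1 cluster, led by Dcn and Colec11. It scored 5.46 for the mesenchymal marker list and 4.83 for the mesothelial one. These cells were too few to compare, with 14 cells in HCC, 19 in high-AFP, 13 in low-AFP and 102 in control. Saa3 had 0 UMIs in HCC, 3 in high-AFP, 389 in low-AFP and 0 in control, where the floor of 3 counts corresponds to 4.02 CPM. In low-AFP 387 of the 389 UMIs lay in 1 cell, which also held 237 UMIs of Dcn, a proteoglycan of fibroblasts, 14 of Upk3b and 4 of Lrrn4, both known from mesothelium, and 0 of Lrat, which marks stellate cells. Lcn2 had 7, 2, 13 and 0 UMIs in HCC, high-AFP, low-AFP and control mesenchymal-like cells.

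Lcn2 and Hp also stood high in classes other than hepatocyte-like and monocyte-like cells. In neutrophil-like cells Lcn2 stood at 886 CPM in HCC, 800 CPM in high-AFP, 505 CPM in low-AFP and 1027 CPM in control, from 225, 59, 57 and 44 cells, and Hp at 1277, 1702, 1531 and 1575 CPM. In cholangiocyte-like cells, the lining of bile ducts, Lcn2 stood at 1027 CPM in HCC (953 to 1105, 44 cells), 534 CPM in high-AFP (470 to 604, 57 cells), 766 CPM in low-AFP (705 to 831, 65 cells) and 283 CPM in control (239 to 334, 57 cells). These are single libraries of 44 to 65 cells, HCC with under the 50 cells set for a comparison, and the intervals cover counting error only. Other genes moved with Lcn2 in the HCC cells: Afp stood at 77.3 CPM in HCC and 5.98 CPM in control, Hp at 1283 CPM and 174 CPM, and the duct markers Krt19 at 223 CPM and 477 CPM and Epcam at 683 CPM and 1015 CPM. Their part in the Lcn2 value was not tested. Crp also stood high in cholangiocyte-like cells, at 242 CPM in HCC, 253 CPM in high-AFP, 280 CPM in low-AFP and 313 CPM in control, the lowest in HCC as in hepatocyte-like cells, by a smaller margin.

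**Figure D5:**
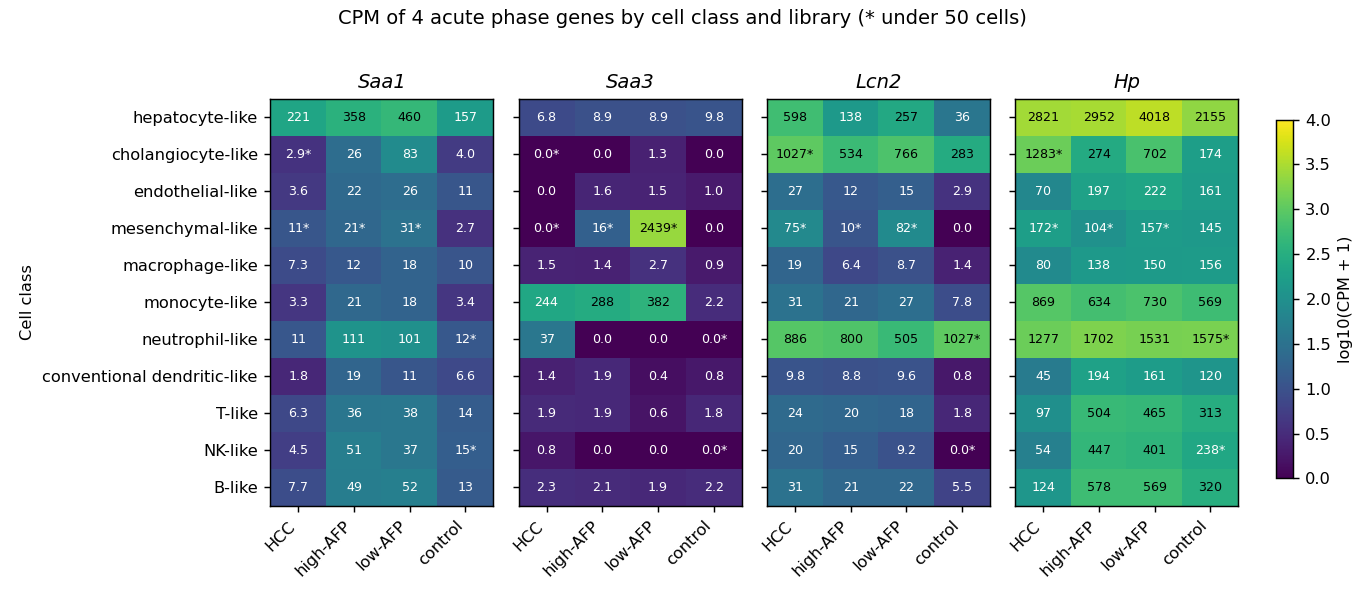
Level of Saa1, Saa3, Lcn2 and Hp by cell class (rows) and library (columns), printed in CPM and coloured by log10(CPM + 1). Stars mark classes with under 50 cells. Saa3 stands at 244, 288 and 382 CPM in monocyte-like cells of HCC, high-AFP and low-AFP against 2.24 CPM in control, and Lcn2 is high in hepatocyte-like, cholangiocyte-like and neutrophil-like cells.

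The wider acute phase pathway was read in hepatocyte-like cells from 7 lists. In HCC against control, 4 of 22 measured other positive acute phase genes were called higher, where 13.2% of all genes were, and 9 lower, where 6.87% were, with a median log2 fold of -0.84 beside 0.22 over all genes. The higher ones were Ier3, an immediate early gene (3.15), the metallothioneins Mt1 (2.51) and Mt2 (2.15), and Cd14, the endotoxin co-receptor (1.77). The farthest lower were Serpina3k, a serine protease inhibitor (-4.08), Hamp, the iron hormone hepcidin (-2.25), Fga, a fibrinogen chain (-1.87), and Serping1, the C1 inhibitor of complement (-1.63). Fgg, Serpina3m, Lbp, C3 and Itih4 were the other lower ones.

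Cytokine receptors were called higher in 0 of 6 measured in HCC against control (13.2% of all genes) and lower in 2 of 6 (6.87% of all genes), Il1rap, the co-receptor for Il1b (-3.14), and Lifr, the leukaemia inhibitory factor receptor (-1.03). Il1rap stood at 12.5 CPM in HCC, 109 CPM in high-AFP, 109 CPM in low-AFP and 188 CPM in control. Of the signal transducers and transcription factors 3 of 13 were called higher (13.2% of all genes), Cebpb, a C/EBP factor that binds acute phase promoters (1.40), and the NF-kB subunits Nfkb2 (1.12) and Relb (1.12), and 0 lower. Stat3 was not called, at 53.7 CPM in HCC, 96.5 CPM in high-AFP, 102 CPM in low-AFP and 80.9 CPM in control.

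Of 6 inhibitors measured in HCC against control, where 13.2% of all genes were higher and 6.87% lower, 3 were called higher, Socs3, the feedback inhibitor of Stat3 signalling (1.91), and the NF-kB regulators Nfkbia (1.21) and Nfkbiz (1.07), and 2 lower, the phosphatase Dusp1 (-1.48) and the mRNA-decay factor Zfp36 (-1.13). Neutrophil-like cells of HCC held far more of several of these: 1212 CPM of Ier3, 609 CPM of Cd14, 424 CPM of Socs3 and 844 CPM of Nfkbiz, against 86.2, 27.1, 52.0 and 33.9 CPM in HCC hepatocyte-like cells, in which the neutrophil marker sum was raised as given above. The part of that RNA in these values was not tested. Il1b was the cytokine called higher of 2 measured (17.4 CPM in HCC against 1.06 CPM in control), and it stood at 12778 CPM in HCC neutrophil-like cells.

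Of 10 negative acute phase genes, 0 were called higher and 1 lower in HCC against control (13.2% and 6.87% of all genes), Alb (-2.29). Of 3 measured receptors of acute phase proteins 1 was lower, Fcgr2b, an Fc receptor of sinusoidal endothelium (-1.12), and 0 higher. The 12 endothelial markers, Fcgr2b among them, summed to 25.6 CPM in HCC and 139 CPM in control hepatocyte-like cells. The part of endothelial RNA in the Fcgr2b value was not tested. In high-AFP against control, where 1.4% of all genes were higher and 0.764% lower, the called list genes were Cebpb (1.35) and Cish, a cytokine-inducible inhibitor (1.05), with Mt1 (1.36) and Mt2 (1.27), all higher, and Serpina3k (-1.39), Serpina3m (-1.07), Dusp1 (-1.01), Alb (-1.70) and Apoa4, an apolipoprotein (-1.32), all lower. In low-AFP against control Mt1 (1.31) and Mt2 (1.25) were higher and Serpina3k (-1.07) lower, out of 20 other positive acute phase genes measured, beside 0.928% higher and 0.542% lower of all genes. Saa4, the constitutive amyloid A gene next to Saa1 and Saa2, stood at 90.6 CPM in HCC, 190 CPM in high-AFP, 200 CPM in low-AFP and 170 CPM in control and was not called.

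In HCC against high-AFP, Ier3 (2.92), Cd14 (1.60), Socs3 (1.57), Il1b (1.24), Mt1 (1.15) and Nfkbiz (1.09) were higher. Hamp (-2.71), Serpina3k (-2.69), Il1rap (-2.41), Serping1 (-1.34), Steap4, a metalloreductase (-1.20), Fga (-1.07) and Lrp1, the scavenger receptor that takes up haem with hemopexin (-1.07), were lower. High-AFP against low-AFP gave 1 call over all lists, Apoa4 (-1.06). Cebpb stood at 399 CPM in HCC and 384 CPM in high-AFP, against 214 CPM in low-AFP and 144 CPM in control.

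Some cytokine and receptor genes of the lists had more RNA in other cells than in hepatocyte-like cells. Other receptors had RNA in hepatocyte-like cells, as Il6st at 30.1 CPM in HCC and 58.1 CPM in control. Lrp1 stood there at 80.4 CPM and 156 CPM. Il6 was at or under 7.83 CPM in each class with at least 50 cells apart from neutrophil-like cells, where it stood at 92.5 CPM in HCC (57 UMIs) and 85.1 CPM in high-AFP (10 UMIs). Osm, an Il6-type cytokine, stood at 686 CPM in HCC, 196 CPM in high-AFP and 225 CPM in low-AFP neutrophil-like cells. Cd163, the receptor that takes up haptoglobin bound to haemoglobin, stood at 281 CPM in macrophage-like cells of control (259 to 304) and under 10 CPM in those of the other libraries.

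Over the 40 pairs of class and library with at least 50 cells, in 12 classes, the genes most like Saa1 were Saa2 (Pearson r 0.97), Mrap (0.93) and Dpys (0.92). Those most like Saa3 were P2rx1 (0.91) and the unnamed models Gm47507 (0.89) and Gm48614 (0.87). For Lcn2 they were Sgms2 (0.87), Chrm3 (0.86) and Slc39a4 (0.84), and for Hp Sephs2 (0.90), Msra (0.89) and Gk (0.86). The pairs of a library share its depth and free RNA, and these values are descriptions.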

How the data were processed

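The authors deposited UMI counts per gene and barcode, whole numbers from Cell Ranger 3.0.2 per the file headers. Per the submitters' processing notes, R 3.0, Seurat 3, Cell Ranger and mm9 were used, in roles not given, and per the labels a version 2 kit of 10x Genomics with a HiSeq 4000. No coordinate entered a value. Barcodes with at least 300 genes, 500 UMIs and at most 30% mitochondrial UMIs were kept. Scrublet's automatic threshold marked under 0.5% in each library, so the highest scores were removed at 0.8% per 1000 barcodes: 513 in HCC, 575 in high-AFP, 230 in low-AFP and 323 in control. Counts were scaled to 10000 per cell and clustered on 2000 variable genes without the 10 members, 30 components and 15 neighbours (Leiden at resolution 1; scanpy 1.11.5, leidenalg 0.10.2), with no integration, since library and group coincide. Clusters were named "like" a class from fixed marker lists, with at least 3 markers. A cluster of 20 HCC cells with high Glul and clusters of cycling cells were left unnamed, with conditions on score gap and cycling set after the clusters were seen.

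CPM are class sums per 1000000 nuclear-encoded UMIs. Folds used 10 added CPM, a call at 2-fold, a minimum of 10 CPM in either library and 50 cells in both. Intervals are exact Poisson, or exact Clopper-Pearson for shares, at 95%, and cover counting error only. Promoters were read from the RefSeq table and aligned with Biopython 1.88. The NF-kB-like letters were shortened by a base after the longer form had been searched and matched no member. The fold rule was tested on simulated data. Genes outside the members were named by rule: up to 4 higher and 4 lower calls per comparison over the pathway lists, and the 3 genes most correlated with Saa1, Saa3, Lcn2 and Hp. Calls of the lists beyond that were named after their values were seen. The members and lists were chosen with earlier results of these data known. Alternatives are given in the closing section.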

Additional observations from a re-analysis of the deposited data

How the results depend on the processing

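The main choice was 10 CPM added, a 10 CPM minimum and the 30% mitochondrial limit. Under other settings 228 of the 248 counts of members called were within 1.5 times the main count. This limit looks at counts alone, and a count of 0 that stayed at 0 is within it. Inside it, Saa1 in hepatocyte-like cells of high-AFP against control lost its call with every cell weighted equally (log2 fold 0.97). No member that was called changed sign under these settings, in which cluster 5 was the only hepatocyte-like cluster taken alone. Other single clusters did show the opposite sign. In cluster 10 the log2 folds of Orm1 and Hpx in HCC over control were 0.30 and 0.52. In cluster 20 those of Saa2 over control were -1.38 in high-AFP and -1.05 in low-AFP. In HCC against control, hepatocyte-like cells had 2 members higher in place of 1 with 1 CPM added, with every cell weighted equally, at a Leiden resolution of 2 and without cluster 22 (Orm2 was added), and 3 without doublet removal (Saa2 and Orm2 were added). The 3 lower members became 1 (Crp) without cluster 17, 5 in cluster 5 alone (Saa3 and Apcs were added) and 4 without cluster 22, where Apcs was added, as it was at a resolution of 2. At a mitochondrial limit of 15%, the 4 higher members became 2 (Lcn2 and Orm2) in high-AFP and 2 in low-AFP against control, and the 2 higher members of monocyte-like cells in HCC became 1 (Saa3), as at a resolution of 2. In cluster 5 alone, high-AFP against control had 0 higher and 3 lower, low-AFP against control 1 lower (Saa3), HCC against high-AFP 0 higher and 0 lower, and high-AFP against low-AFP 4 lower (Lcn2, Hp, Hpx and Apcs). In cluster 2, outside these settings, Saa1, Saa2 and Saa3 were called higher in high-AFP than in low-AFP, as given above. The share of all genes called inside cluster 5 was not computed. HCC against high-AFP had 0 higher at a resolution of 2 and without cluster 22, and 1 lower (Crp) with cells weighted equally. Hpx was added to the lower members there at the 15% limit, without doublet removal, at a resolution of 2 and without cluster 22.

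Over the 17 other settings, Lcn2 in HCC against control kept its call in 17, with log2 folds of 1.13 to 4.01, and Crp in 17, at -3.04 to -1.29, while Orm1 kept it in 13 and Hpx in 15. The cause of these changes was not tested. Single clusters, left-out clusters and left-out cells were chosen after seeing the data. No paired analysis was possible because each group had 1 library, and no value has a replicate check. Depth limits low genes: 3 counts correspond to 0.499 CPM in HCC and 0.106 CPM in control hepatocyte-like cells, 0.239 CPM and 3.36 CPM in monocyte-like cells, and 32.2 CPM and 4.02 CPM in mesenchymal-like cells.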
